A study of Mus musculus with 2 samples.

Results

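Sterol and fatty acid synthesis genes were examined in proximal tubular (PT) cells isolated from the kidneys of PT cell-specific KAT5 knockout (KO) mice and of wild-type mice. The list named 34 genes by their place in these pathways, with earlier results of these data known, and 31 of them were held by the array among 19505 genes, each with 1 probe set. Tm7sf2, Srebf1 and Scd2 were not analysed here, since the annotation gave no probe set their symbols. The KO group was 1 Clariom S mouse array of PT cells from mice with floxed Kat5 alleles and a γGT-Cre transgene, whose promoter is active along the PT and most strongly in its last segment. The other group was 1 array of PT cells from mice labelled wild type. Neither the labels nor the methods state whether these mice were floxed littermates without Cre or how many animals gave RNA to an array. For both arrays the labels give male mice, an age of 8 weeks and 64 ng of RNA, although their descriptions also speak of embryos. The cells were taken by removal of CD31-positive endothelial cells and magnetic selection with an antibody to Prominin1.

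Cholesterol is built from acetyl-CoA through mevalonate, farnesyl diphosphate, squalene and lanosterol, whereas fatty acids are built from acetyl-CoA through malonyl-CoA and are then elongated and desaturated. Both pathways are driven by the SREBP transcription factors, which are carried from the endoplasmic reticulum by SCAP when sterols are scarce and are held back there by the INSIG proteins. PT cells draw their energy mainly from fatty acid oxidation, and they also make lipids for their large apical and basolateral membranes.

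With 1 array per genotype, no error, p-value or replicate spread could be computed, and every value describes these 2 arrays. Levels are log2 values from RMA, an array summary that corrects background and normalizes arrays, and 1 unit stands for 2-fold. Levels of different genes cannot be compared, since each comes from its own probes. The background level was 5.14, from 1465 odorant, pheromone, taste and trace amine receptor genes taken as silent in the kidney, and 11635 genes lay above it on at least 1 array. Differences are KAT5 KO minus wild-type, and over the receptor genes they had an SD of 0.55, which describes dim probe sets only. Kat5 itself was at 8.67 on the KAT5 KO array and 10.20 on the wild-type array, or 34.8% of the wild-type level, and whether its probes lie in the floxed part is not given in the sources used here. The Y-linked genes Uty, Kdm5d and Eif2s3y were at 3.42, 3.76 and 2.29 on the KAT5 KO array, under the background level, against 9.84, 7.69 and 10.11 on the wild-type array, although both samples are labelled male. Of the PT markers, 27 of 28 were above background on both arrays, but they were far apart, since 28 of 28 were 2-fold or more higher on the KAT5 KO array, with a median difference of 6.69, and their levels ran between 6.75 and 19.93 on that array and between 3.80 and 14.68 on the wild-type array. Of 80 measured markers of other kidney, blood and fat cells, 62 were 2-fold or more lower and 1, Cldn10, was higher. Their median level was 6.75 on the KAT5 KO array and 9.27 on the wild-type array, and that of the PT markers was 16.78 and 9.77. Umod, of the loop of Henle, was at 15.65 on the KAT5 KO array and 19.93 on the wild-type array. The level of 19.93 is the highest on both arrays. Prom1, the PT marker used to select the cells, was at 13.74 on the KAT5 KO array and 9.07 on the wild-type array. In such bulk samples fewer cells of a type and less RNA per cell cannot be told apart, and genotype, cell type markers and Y-linked genes differ between the same 2 arrays, so that what goes with each cannot be told apart either.

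Of the 31 genes, 18 were 2-fold or more higher on the KAT5 KO array, 0 were 2-fold or more lower and 13 lay within 2-fold. The sterol pathway contributed 9 of its 15 enzymes to the higher genes, fatty acid synthesis 8 of 12, and the control of SREBP 1 of 4. The shares among all measured genes were 17.8% for 2-fold or more higher and 15.9% for 2-fold or more lower. The median difference of the 31 genes was 1.30 (2.45-fold), against -0.05 for all measured genes, and 29 of the 31 differences were positive. At 1.5-fold, 20 of the 31 were higher and 0 lower, beside 26.7% and 26.9% of all measured genes. At 3-fold, 10 were higher and 0 lower, beside 10.7% and 7.88%. All 31 genes were above background on the KAT5 KO array, and Mvk and Elovl2 were under it on the wild-type array. Their median difference lay well below that of the PT markers, none of which is among them, and the part of the PT markers' difference in these results was not tested.

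**Figure D1:**
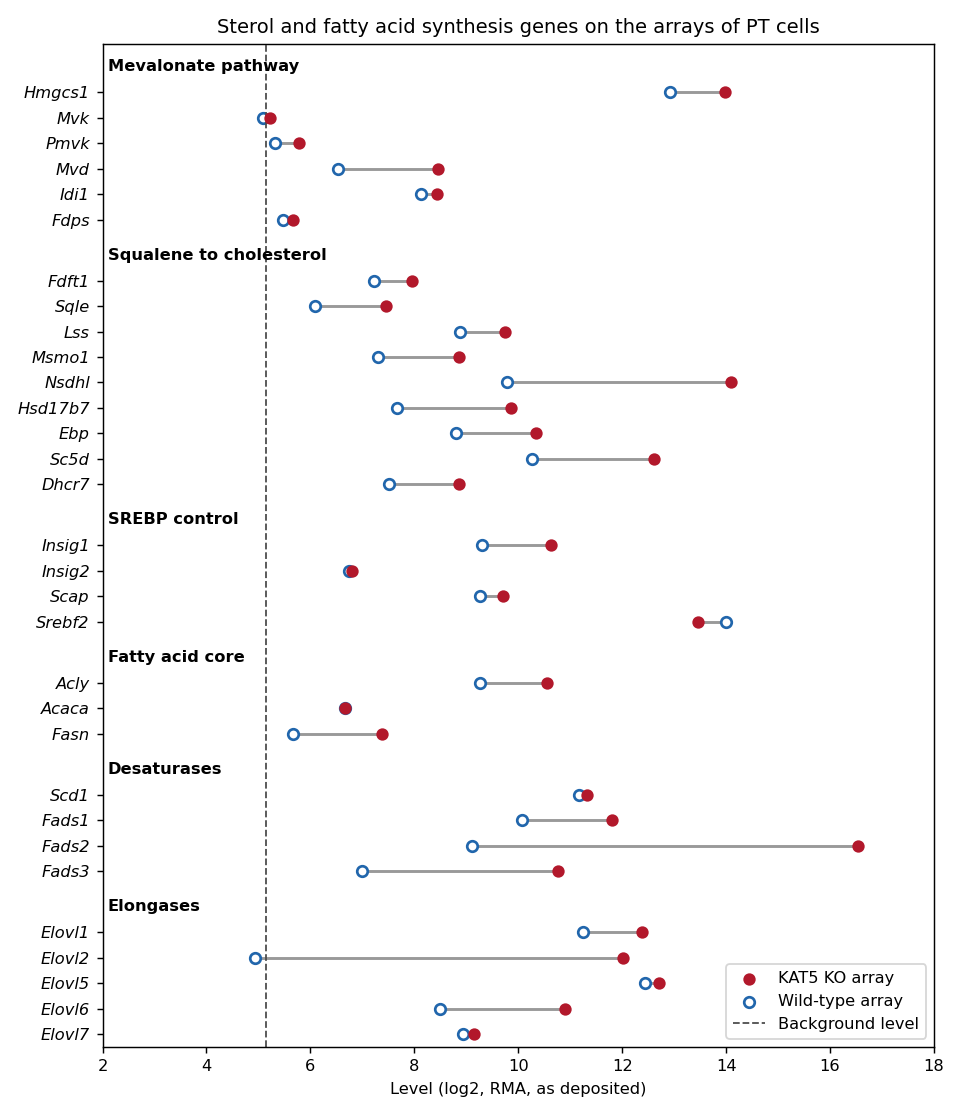
Level of each of the 31 genes (log2, RMA) on the KAT5 KO array (filled points) and on the wild-type array (open points), ordered by role, with the background level of 5.14 dashed. Fads2 and Elovl2 have the longest lines, and Srebf2 and Acaca are the 2 genes whose KAT5 KO point is not to the right of the wild-type point.

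**Figure D2:**
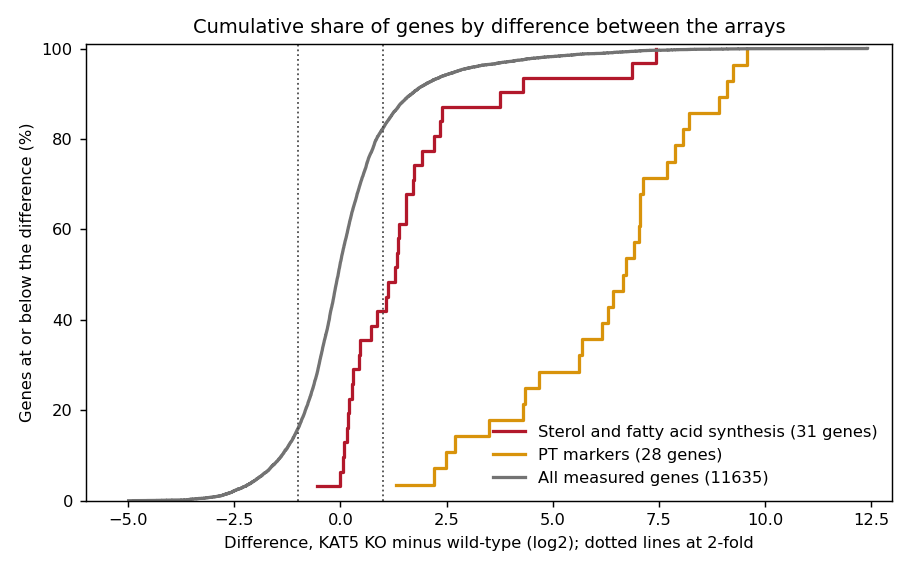
Cumulative percentage of genes (y axis) by difference, KAT5 KO minus wild-type (log2, x axis), for the 31 sterol and fatty acid synthesis genes, 28 PT markers and all 11635 measured genes. The 31 genes lie between the other curves below 7.42, their largest difference, with medians of 1.30, 6.69 and -0.05 in the order named.

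In the mevalonate part of the sterol pathway, 2 of 6 enzymes were 2-fold or more higher on the KAT5 KO array and 4 lay within 2-fold, with a median difference of 0.38. Of these 4, Mvk, Pmvk and Fdps lay near the background level and were not measured with a background level from the 99th percentile, which left Hmgcs1, Mvd and Idi1. Hmgcs1, which condenses acetyl-CoA and acetoacetyl-CoA into HMG-CoA, was at 13.98 on the KAT5 KO array and 12.91 on the wild-type array. This difference of 1.07 was the one closest to the threshold from above, and it was 0.93 with quantile normalization of the arrays. Mvd, which decarboxylates mevalonate diphosphate to isopentenyl diphosphate, was at 8.46 on the KAT5 KO array and 6.52 on the wild-type array, 3.82-fold higher. Pmvk, phosphomevalonate kinase, was at 5.79 on the KAT5 KO array and 5.33 on the wild-type array, and Mvk, mevalonate kinase, was at 5.21 on the KAT5 KO array and 5.10 on the wild-type array, so that levels of Mvk hardly left the background. Idi1, which isomerizes isopentenyl diphosphate, differed by 0.30, with 8.43 on the KAT5 KO array and 8.13 on the wild-type array. Fdps, farnesyl diphosphate synthase, differed by 0.19, with 5.66 on the KAT5 KO array and 5.47 on the wild-type array.

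From squalene to cholesterol, 7 of 9 enzymes were 2-fold or more higher on the KAT5 KO array, and the median difference was 1.54 (2.92-fold). The synthases of squalene and lanosterol differed least. Fdft1, squalene synthase, was at 7.96 on the KAT5 KO array and 7.23 on the wild-type array, a difference of 0.73. Lss, lanosterol synthase, was at 9.75 on the KAT5 KO array and 8.89 on the wild-type array, and its difference of 0.86 was the closest to the threshold from below. Between them in the pathway stands Sqle, the squalene monooxygenase and a control point of the pathway, which was at 7.46 on the KAT5 KO array and 6.09 on the wild-type array, 2.58-fold higher.

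Msmo1, Nsdhl and Hsd17b7, which act together in removing methyl groups from the sterol ring, were all 2-fold or more higher. Nsdhl, the sterol dehydrogenase of this step, was at 14.09 on the KAT5 KO array and 9.78 on the wild-type array. It was 19.8-fold higher, the largest difference among the sterol enzymes above background on both arrays. Hsd17b7, the reductase that follows Nsdhl, was at 9.86 on the KAT5 KO array and 7.66 on the wild-type array, and Msmo1, the oxidase before it, was at 8.86 on the KAT5 KO array and 7.31 on the wild-type array. The 3 differences were thus 4.31, 2.20 and 1.55 and did not share a size. The last steps move and reduce the double bonds of the ring. Ebp, the sterol isomerase, was at 10.34 on the KAT5 KO array and 8.80 on the wild-type array, 2.92-fold higher. Sc5d, the desaturase after Ebp, was at 12.62 on the KAT5 KO array and 10.26 on the wild-type array, 5.12-fold higher. Dhcr7, which makes cholesterol by reducing 7-dehydrocholesterol, was at 8.86 on the KAT5 KO array and 7.50 on the wild-type array, 2.56-fold higher. Nsdhl and Ebp lie on the X chromosome, and whether the Y-linked genes' difference bears on them was not tested.

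Of the proteins that control SREBP, only Insig1 reached 2-fold among the 4 held. Insig1, which retains SCAP and is itself a known SREBP target, was at 10.63 on the KAT5 KO array and 9.30 on the wild-type array, 2.51-fold higher. Its relative Insig2 was nearly even, at 6.80 on the KAT5 KO array and 6.74 on the wild-type array. Scap was at 9.71 on the KAT5 KO array and 9.27 on the wild-type array, a difference of 0.44. Srebf2, which encodes the SREBP that acts chiefly on sterol synthesis, was at 13.45 on the KAT5 KO array and 14.00 on the wild-type array, and its difference of -0.55 was the lowest of the 31 genes. The array reads the RNA of these regulators and not the cleaved protein.

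The sterol genes are shown by their start regions because a CCAAT box, the letters bound by NF-Y, and an SRE-1 element, bound by SREBP, are the textbook features of sterol-regulated promoters. RefSeq windows of 300 bases (250 before to 50 after a start, GRCm38.p6) matched 26 of the 31 genes in 34 windows, with none for Fads1, Fdft1, Fdps, Scd1 and Sqle. Windows were searched on both strands for CCAAT, for TCACNCCAC (SRE-1) and for CACGTG (an E-box, which SREBP can also bind). Among 52 matches 2 overlapped each other within a window, and the same CACGTG of Scap was matched in both of its windows, which overlap. CCAAT was in at least 1 window of 12 of 12 sterol pathway genes and of 5 of 10 fatty acid genes, against 41.1% of all 27025 genes in the table and 42.8% of the 9459 measured genes with a window. By window it was in 20 of 34, or 58.8%, against 37.4% of all 32851 windows. Split by difference, the box was in 13 of the 16 genes that were 2-fold or more higher and in 7 of the 10 within 2-fold. CACGTG was in 6 of the 26 genes (Dhcr7, Elovl5, Hsd17b7, Insig1, Sc5d and Scap), against 11.4% of the 9459 measured genes with a window. It was in 7 of the 34 windows, or 20.6%, against 7.15% of all windows and 9.59% of those of measured genes. Split by difference, CACGTG was in 4 of the 16 genes that were 2-fold or more higher and in 2 of the 10 within 2-fold. TCACNCCAC was in 1 of the 34 windows, that of Hmgcs1, and in 1.24% of all windows. These matches are letters in a window and not sites of binding. A search for exact letters does not find variants of an element, so a window without a match is not shown to lack one.

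Of the windows printed here with matches in capitals, that of Hmgcs1 (chr13:119690101-119690400, plus strand) is the one with an SRE-1, which begins 137 bases before the start, beside 4 CCAAT boxes written as ATTGG. The window of Nsdhl (chrX:72918271-72918570, plus strand), the enzyme that was 19.8-fold higher, holds 4 CCAAT boxes. Among the windows not printed, that of Mvk holds 5, the most of all, and Mvk, near the background level, differed by at least 0.08. That of Sc5d (chr9:42264251-42264550, minus strand) holds an E-box 98 bases and a CCAAT box 24 bases before the start. The window of Fads2 (chr19:10101454-10101753, minus strand), the gene with the largest difference among those above background on both arrays, holds 0 matches to these letters.
Hmgcs1: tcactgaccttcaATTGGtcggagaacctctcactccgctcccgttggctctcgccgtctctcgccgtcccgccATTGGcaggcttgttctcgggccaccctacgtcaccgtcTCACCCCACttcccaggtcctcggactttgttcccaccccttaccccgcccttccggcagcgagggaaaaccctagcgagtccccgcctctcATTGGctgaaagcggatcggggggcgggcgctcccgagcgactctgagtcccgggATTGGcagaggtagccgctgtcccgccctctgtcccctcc
Nsdhl: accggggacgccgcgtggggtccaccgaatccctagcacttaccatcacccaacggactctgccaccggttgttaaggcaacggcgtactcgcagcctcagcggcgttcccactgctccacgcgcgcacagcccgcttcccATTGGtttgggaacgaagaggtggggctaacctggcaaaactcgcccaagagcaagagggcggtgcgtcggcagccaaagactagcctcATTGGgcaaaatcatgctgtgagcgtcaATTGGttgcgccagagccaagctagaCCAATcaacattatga
Sc5d: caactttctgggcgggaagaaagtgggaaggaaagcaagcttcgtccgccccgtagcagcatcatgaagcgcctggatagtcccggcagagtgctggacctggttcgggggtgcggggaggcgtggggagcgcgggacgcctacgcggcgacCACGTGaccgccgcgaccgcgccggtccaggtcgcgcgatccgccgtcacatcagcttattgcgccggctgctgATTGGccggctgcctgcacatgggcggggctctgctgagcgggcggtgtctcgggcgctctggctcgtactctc
Fads2: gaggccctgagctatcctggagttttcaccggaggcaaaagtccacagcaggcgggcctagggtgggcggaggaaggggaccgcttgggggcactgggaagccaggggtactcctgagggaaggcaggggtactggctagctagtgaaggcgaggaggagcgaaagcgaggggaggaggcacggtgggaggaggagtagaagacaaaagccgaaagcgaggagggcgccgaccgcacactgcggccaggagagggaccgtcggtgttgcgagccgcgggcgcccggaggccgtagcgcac

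In fatty acid synthesis, the enzymes at either side of acetyl-CoA carboxylase passed 2-fold, whereas the carboxylase differed by -0.01. Acly, which makes cytosolic acetyl-CoA from citrate, was at 10.56 on the KAT5 KO array and 9.26 on the wild-type array, 2.45-fold higher. Fasn, the fatty acid synthase, was at 7.37 on the KAT5 KO array and 5.67 on the wild-type array, 3.26-fold higher, with its wild-type level close to the background. Acaca, the carboxylase that makes malonyl-CoA, was at 6.66 on the KAT5 KO array and 6.67 on the wild-type array.

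The desaturases spanned differences between 0.16 and 7.42. Fads2, the desaturase that opens the synthesis of long polyunsaturated fatty acids from linoleic and linolenic acid, was at 16.53 on the KAT5 KO array and 9.11 on the wild-type array. This difference of 7.42 (172-fold) was the largest among the 29 genes above background on both arrays. Fads3, a desaturase of the same family that acts on sphingoid bases, was at 10.76 on the KAT5 KO array and 6.99 on the wild-type array, 13.6-fold higher. Fads1, the desaturase that acts after Fads2 and an elongation, was at 11.81 on the KAT5 KO array and 10.07 on the wild-type array, 3.33-fold higher. The 3 genes follow each other on chromosome 19 in the order Fads3, Fads2, Fads1, with 0 protein-coding genes between them. Scd1, which makes oleic and palmitoleic acid from saturated chains, was nearly even, at 11.33 on the KAT5 KO array and 11.16 on the wild-type array. Its close copies Scd3 and Scd4 were under the background level on both arrays, and how far probes of Scd1 also bind RNA of such copies is not given in the sources used here.

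The 5 elongases add carbon pairs to fatty acyl chains, and 3 of them were 2-fold or more higher while 2 lay within 2-fold. Elovl2, the elongase of very long polyunsaturated chains, was at 12.02 on the KAT5 KO array, against 4.93 on the wild-type array, which is under the background level. It was at least 117-fold higher, and with this bound it has no order against Fads2. Elovl6, which elongates palmitic to stearic acid, was at 10.89 on the KAT5 KO array and 8.49 on the wild-type array, 5.28-fold higher. Elovl1, which makes very long saturated chains for sphingolipids, was at 12.38 on the KAT5 KO array and 11.24 on the wild-type array, 2.19-fold higher, with a difference of 0.96 after quantile normalization. Elovl5, which elongates the products of Fads2, was at 12.71 on the KAT5 KO array and 12.43 on the wild-type array, and Elovl7, an elongase of long saturated chains, was at 9.14 on the KAT5 KO array and 8.94 on the wild-type array. Along the polyunsaturated route the differences were therefore 7.42 for Fads2, 0.28 for Elovl5, 1.74 for Fads1 and at least 6.88 for Elovl2, so that its successive enzymes did not share a size.

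Other genes of these pathways were taken from lists by function, and in 4 of these 5 lists they lay on both sides. Among all measured genes, 17.8% were 2-fold or more higher and 15.9% lower, with a median of -0.05. Fatty acid synthesis and elongation had 19 further measured genes, with 10 higher by 2-fold or more (52.6%), 2 lower (10.5%) and a median difference of 1.02. The NADPH-producing enzymes Idh1 and Me1 were higher by 6.17 and 4.96, and Mlxipl, which encodes the carbohydrate-responsive factor ChREBP, by 4.51. Lower were Hacd4, a dehydratase of the elongation cycle (-2.23), and Fads6, a member of the desaturase family (-1.05). Sterol and isoprenoid synthesis had 8 further measured genes, with 4 higher (50%), 1 lower (12.5%) and a median of 1.09. Nus1, a subunit of the enzyme that makes dolichol precursors, was higher by 4.57, the thiolase Acat1 by 2.44 and Coq2, a transferase of ubiquinone synthesis, by 2.32. Lbr, the lamin B receptor and a sterol reductase, was at 11.34 on the KAT5 KO array and 12.90 on the wild-type array, a difference of -1.56. Among 9 further measured genes of SREBP processing there were 1 higher (11.1%) and 0 lower, and the median was 0.19. The share of higher genes was thus not above the 17.8% of all measured genes. That gene, Erlin1, whose product takes part in the retention of SREBP and the breakdown of sterol enzymes, was higher by 2.68.

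Glycerolipid synthesis had 6 of 24 genes higher (25%), 1 lower (4.17%) and a median of 0.24. The shares among all measured genes were 17.8% and 15.9%, with a median of -0.05. Dgat2, which makes triglycerides, was higher by 5.37, Chpt1, which makes phosphatidylcholine, by 4.49, and Pcyt2, of phosphatidylethanolamine synthesis, by 2.43, whereas the acyltransferase Agpat4 had a difference of -2.02. Genes of cholesterol uptake, export and storage lay on both sides, with 4 of 16 higher, 6 lower and a median of -0.37. Apoe, counted within 2-fold, was at 19.93 on both arrays. That is the highest level, shared by 20 probe sets on the KAT5 KO array and 35 on the wild-type array, so its difference cannot be read. Higher were Nr1h3, which encodes the sterol-sensing receptor LXRα (2.56), the lipoprotein receptor Vldlr (2.29) and Lipa, the lysosomal acid lipase (2.05). Lower were the exporter Abcg1 (-1.84), the lysosomal cholesterol carrier Npc2 (-1.82) and the HDL receptor Scarb1 (-1.82). Beside these, 13 of 14 myeloid markers were 2-fold or more lower, with a median of -2.11 and levels between 5.47 and 17.08 on the KAT5 KO array and between 7.60 and 19.45 on the wild-type array, and their part in the cholesterol genes was not tested. Of 11 fat cell markers held, 8, among them Adipoq, Plin1, Lep and Cidec, were under the background level on both arrays, and the other 3 were 2-fold or more lower.

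**Figure D3:**
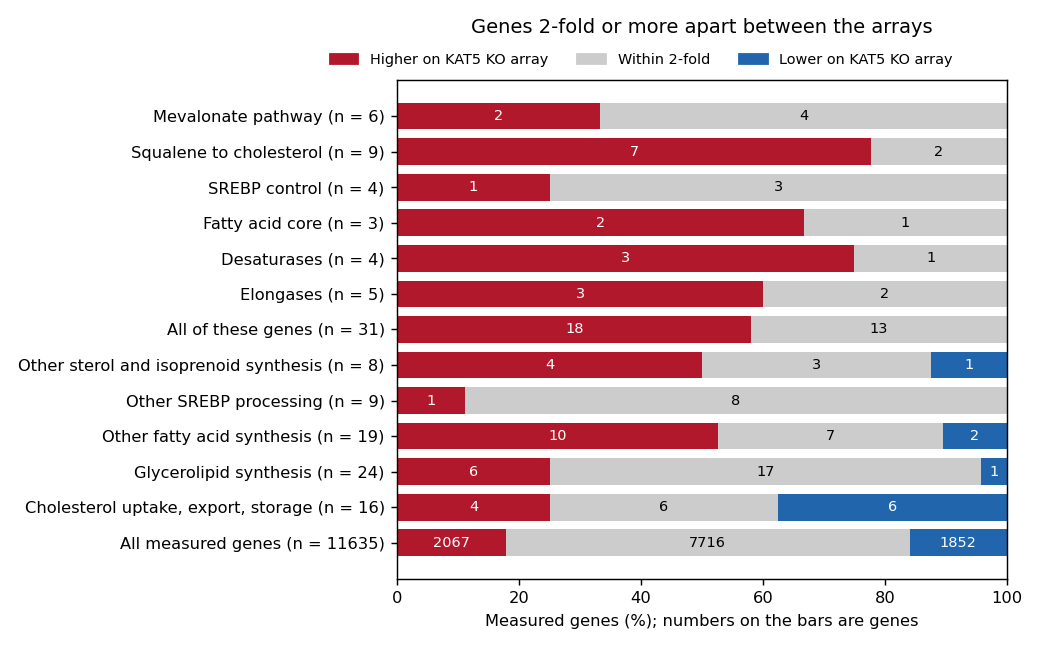
Percentage of measured genes of each list (x axis) that were 2-fold or more higher on the KAT5 KO array, within 2-fold, or 2-fold or more lower, with the number of genes on each bar. The 6 role groups of the 31 genes hold no lower gene, and the list of cholesterol uptake, export and storage holds 6 lower genes of 16.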

How the data were processed

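RNA of isolated PT cells was hybridised to 1 Clariom S mouse array per genotype. The authors deposited log2 levels of 28846 probe sets, made with RMA in the Transcriptome Analysis Console, whose versions and array grouping are not given in the sources used here. Of the probe sets, 19572 carried 1 gene symbol in the platform annotation, 0 several and 9274 none, and the last were left out. All 19572 gene numbers matched RefSeq, and the probe sets of a gene were averaged. Levels under the background level (95th percentile of the receptor genes, the higher of both arrays) were raised to it before subtraction, so a difference from a level under it is a lower bound. A gene above it on at least 1 array was measured, and 2-fold was the threshold of size. Arrays have no read depth, and their number limits the precision.

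Every gene of the list was named, with up to 3 genes past 2-fold in each direction from each related list. The members and lists were chosen with earlier results of these data known. Alternatives covered scaling, background level, probe set choice, threshold and mean. Steps were tested on simulated data. Start windows came from RefSeq (GRCm38.p6). Python 3.11.15, numpy 2.4.6, pandas 2.3.3, statsmodels 0.14.6 and matplotlib 3.10.9 were used.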

Additional observations from a re-analysis of the deposited data

How the results depend on the processing

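No alternative turned any difference of 2-fold or more round, and the number of lower genes was 0 under each alternative run. The number of higher genes was 18 under all alternatives of scaling, background level and probe set except quantile normalization, where it was 16, since Hmgcs1 (0.93) and Elovl1 (0.96) came to lie within 2-fold. It was 20 at 1.5-fold and 10 at 3-fold. With quantile normalization the median difference was 1.16 for all genes of the list, 1.25 for the sterol pathway and 1.37 for fatty acid synthesis, beside 1.30, 1.35 and 1.499 as deposited. With the loess trend on level removed (span 0.3) the median of all was 1.41, and with a background level from the 99th percentile, which left 28 of the 31 genes measured, without Mvk, Pmvk and Fdps, the medians of the pathways were 1.46 and 1.39. The mean in place of the median gave 1.57 for all and 2.25 for fatty acid synthesis. Leaving out Fads2 and Elovl2, chosen after seeing the data, gave 16 higher genes and a median of 1.13. Of 213 differences of single genes under the alternatives, 211 kept their side of 2-fold. Much of this count could not change. Each gene had 1 probe set, so the choice of probe set acted only through the background level. A background level acts only on genes with a level under it, and centring shifts all levels of an array alike. No paired analysis was possible because each genotype had 1 array, and for the same reason neither array could be left out.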
